A study of Zea mays with 6 samples.

Results

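The stretch of maize chromosome 4 between 140 and 210 Mb (B73 RefGen_v3) was described gene by gene in developing leaves of hda108 mutant and wild-type plants. Its genes were the rows of the deposited leaf table whose locus starts above 140 Mb and up to 210 Mb on that chromosome, with a value above 0 in each genotype and a mean of at least 1 FPKM, the authors' length- and depth-scaled expression value. The stretch itself was selected on the measured differences between the genotypes along the chromosome. That gave 801 genes among 21057 that met the same filter in the whole table. RNA came from the developing 11th leaf, still wrapped, of greenhouse plants at vegetative stage V8, with 3 strand-specific total RNA libraries from homozygous hda108/hda108 plants and 3 from wild type. The labels give no allele, parental line or number of plants for either genotype, and effects of the hda108 mutation and of sequence linked to it on chromosome 4 cannot be told apart. The authors pooled each genotype's libraries into 1 FPKM value for every gene, so no difference below has a replicate check, and no SD, n or p-value can be given. The depth behind the values is unknown.

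The product of HDA108 is a histone deacetylase, which takes acetyl groups off histone tails, and loss of such groups is generally linked with lower transcription. Maize chromosomes carry few genes and recombine little around their centromeres, and gene density and recombination increase toward their ends. Many maize genes have close relatives elsewhere in the genome from an ancient duplication, and maize lines differ widely in the sequence and copy number of their genes.

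HDA108 itself (GRMZM2G136067, chromosome 4, 65983217 to 65988818) was listed at 3.06 FPKM in hda108 and 10.9 FPKM in wild type, 28.1% of the wild-type value, and ends 74.0 Mb before the interval. The libraries carried leaf transcripts: all 7 leaf photosynthesis markers were found, at 60.8 to 1808 FPKM, and the 4 that were found of 9 meristem, anther and seed markers were at 0.0501 FPKM or less. Values over the whole table summed to 482019 FPKM in hda108 and 478867 FPKM in wild type. In bulk tissue, a lower value can reflect fewer cells of a type or less RNA per cell, and these cannot be told apart.

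Of the 801 genes, 48 differed at least 2-fold, 20 higher and 28 lower in hda108. The difference is log2(FPKM + 0.5) in hda108 minus the same in wild type, a scale that understates folds of weakly expressed genes, and a value of 1 in either direction was the threshold. The share was 5.99% in the interval, against 2.31% of all compared genes. Because the stretch was chosen by these same values, the share is a description and nothing is read from it. On chromosome 4 beyond 210 Mb, 6 of 443 genes (1.35%) passed 2-fold, and on all other chromosomes 387 of 18958 (2.04%). That last set, called other chromosomes throughout, holds every compared gene not on chromosome 4, also those outside the numbered chromosomes. Over the other 9 numbered chromosomes taken singly, the share ran from 1.74% to 2.43%. The 855 compared genes of chromosome 4 up to 140 Mb, which include HDA108, had 46 past 2-fold (5.38%), so the interval was not alone in its share.

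The wider spread was not limited to the genes past 2-fold. Between 1.5-fold and 2-fold lay 91 genes of the interval (11.4%), 45 higher and 46 lower, against 8.89% up to 140 Mb, 4.29% beyond 210 Mb and 6.39% on other chromosomes. Altogether 139 of the 801 genes (17.4%) were past 1.5-fold, against 8.95% of all compared genes. They were 65 higher and 74 lower, beside 5.32% higher and 3.63% lower over all compared genes. The median size of the difference, sign left aside, was 0.23 in the interval, 0.22 on chromosome 4 up to 140 Mb, 0.17 beyond 210 Mb and 0.18 on other chromosomes. Its 90th percentile was 0.77 in the interval, 0.72 up to 140 Mb, 0.44 beyond 210 Mb and 0.54 on other chromosomes. The chromosome before the interval was thus close to it in spread. The centre of the interval hardly stood apart: the median difference was 0.04, against 0.06 over all compared genes. It was -0.022 when the median of all compared genes was set to 0. Most genes of the interval, 662 of 801, lay within 1.5-fold.

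**Figure D1:**
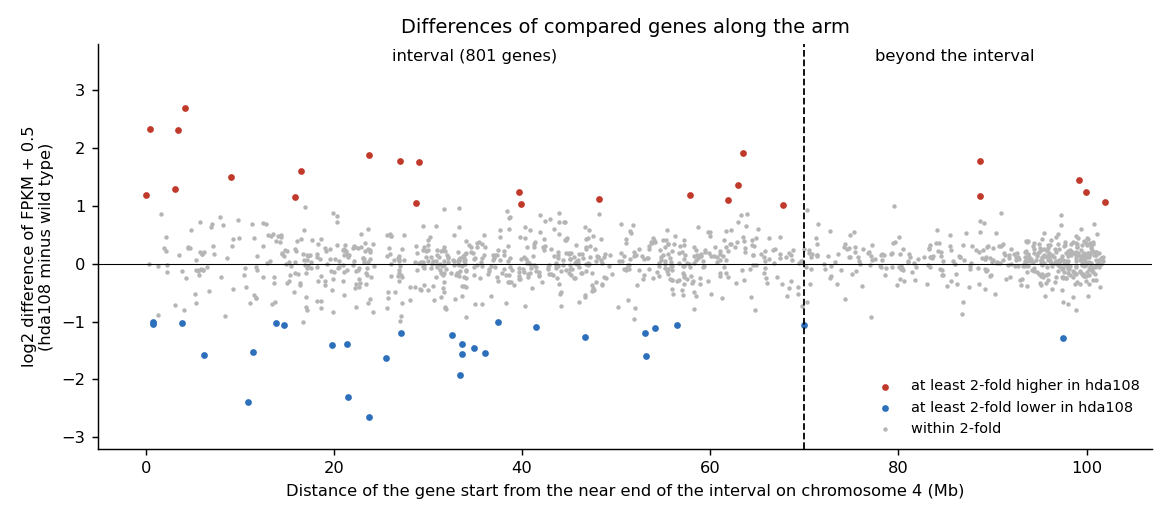
For each compared gene, the y axis gives log2(FPKM + 0.5) in hda108 minus that in wild type. The genes are those of chromosome 4 from the near end of the interval onwards, placed by the distance of their start from that end in Mb (x axis), and the dashed line marks the far end of the interval. Red points are at least 2-fold higher in hda108, blue points at least 2-fold lower, and grey points within 2-fold; 48 coloured points lie in the interval and 6 beyond it.

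Direction also differed in the counts. Genes higher in hda108 made up 41.7% of those past 2-fold in the interval, 52.2% (24 of 46) on chromosome 4 up to 140 Mb and 67.7% on other chromosomes. The 20 higher genes stand beside 1.48% of all compared genes that were higher, and the 28 lower ones beside 0.836% of all that were lower. Beyond 210 Mb, 5 were higher and 1 lower, and quantile normalization turned that into 4 higher and 2 lower. Past 3-fold the interval had 14 genes, against 0.508% of all compared genes, and there more were higher than lower. The 8 higher stand beside 0.347% of all, and the 6 lower beside 0.161%. Over all 801 genes, 45.9% were below 0, against 40.3% of all compared genes.

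The share varied along the interval and, within it, was highest at the near end. That end is a chosen bound. Counted from 130 to 210 Mb instead, 55 of 852 genes passed 2-fold (6.46%), a share above the interval's 5.99%. From 140 to 150 Mb, 10 of 59 genes passed 2-fold (16.9%), 8 of them among the 26 genes of the first 5 Mb. Leaving out those 5 Mb, a choice made after seeing the data, 40 of 775 genes remained (5.16%). The next 3 bins of 10 Mb had 7%, 7.2% and 5.77%. The share dropped to 2.13% (3 of 141) between 180 and 190 Mb, below the 2.31% of all compared genes, and was 3.76% and 5.75% in the last 2 bins of the interval. In the 10 Mb just beyond the interval, 0 of 67 genes passed 2-fold, and no 10 Mb bin beyond it was above 2.30%. In bins of 5 Mb, 13 of the 14 in the interval were above 2.31%, and beyond it 225 to 230 Mb was as well, with 2 of 46 genes (4.35%).

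**Figure D2:**
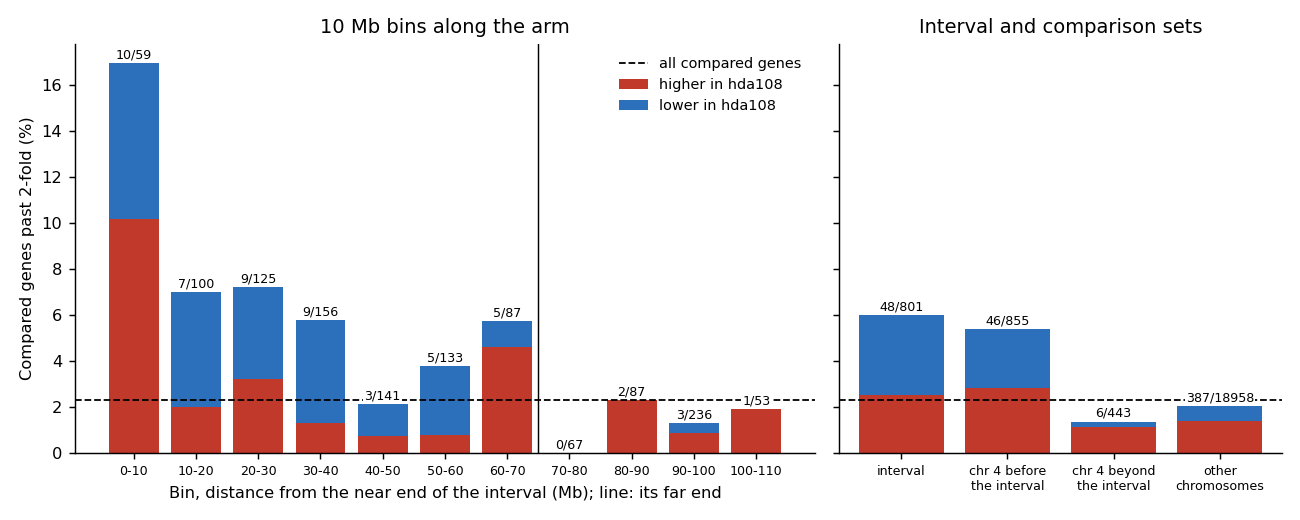
Left, percentage of compared genes past 2-fold (y axis) in 10 Mb bins from the near end of the interval (x axis), higher in hda108 in red and lower in blue, with the vertical line at the far end of the interval. Right, the same for the interval, for chromosome 4 before and beyond it and for other chromosomes; the numbers over the bars are genes past 2-fold over genes compared, and the dashed line is the 2.31% of all compared genes.

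Genes of the same direction followed each other in several places. From 172551714 to 177476458, all 7 genes past 2-fold were lower in hda108. Of the 81 compared genes of that stretch, 40 were above 0 and 41 below. From 197852910 to 207709057, all 5 were higher, and there 69 of 102 compared genes were above 0 with a median of 0.14. Over all compared genes, 12578 of 21057 were above 0, with a median of 0.06. Each stretch was bounded by the direction of its own genes, so nothing is read from these counts. Runs of 4 lower genes lay at 150919519 to 154716491, at 159750699 to 163707559 and at 193094388 to 196420567. Among all 47 consecutive pairs of genes past 2-fold, 26 shared their direction and 21 did not.

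Close neighbours could also stand opposite each other. AC186512.3_FG007 (163706516 to 163707559) had 2.53 FPKM in hda108 and 18.4 FPKM in wild type, the largest difference downward in the interval (-2.65, 6.26-fold lower). Only 4.50 kb further, GRMZM2G552956 (163712061 to 163712798) had 10.05 FPKM in hda108 and 2.35 FPKM in wild type, a difference of 1.89. Neither gene matched an entry of the RefSeq table. The compared genes around them differed less. Before the pair, GRMZM2G309950 and GRMZM2G011085 share a locus entry, which makes their values of 0.02 and 0.60 uncertain, and GNAT3 further off had -0.68. After it, the mitochondrial adenine nucleotide carrier gene ANT2 (GRMZM2G135186) had 0.24 and GRMZM2G012814 had -0.61.

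A similar patchwork lay between 167063263 and 167114579. GRMZM2G063276 had 2.54 FPKM in hda108 and 5.54 FPKM in wild type (-0.99, just under 2-fold). Next to it, GRMZM2G063220 had 9.11 FPKM in hda108 and 2.29 FPKM in wild type (1.78). GRMZM2G015049, which lies 32.9 kb on, had 14.1 FPKM in hda108 and 32.9 FPKM in wild type (-1.197). At the far side stands gln5 (GRMZM2G036464, also named Gln1-4), a glutamine synthetase gene whose enzyme builds ammonium into glutamine, with 51.9 FPKM in hda108 and 97.9 FPKM in wild type (-0.91). GRMZM2G014854, between GRMZM2G015049 and gln5, had -0.20, so the gene higher in hda108 stood between lower ones. Within 50 kb of each other there was 1 further pair past 2-fold, CNX5 and GRMZM2G137696, both lower in hda108.

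The largest difference upward was that of GRMZM2G165778 (144158248 to 144165387), with 19.7 FPKM in hda108 and 2.64 FPKM in wild type, a 6.44-fold difference. GRMZM2G104768 (140496593 to 140497925) had 288 FPKM in hda108 and 56.8 FPKM in wild type, and was the most abundant gene past 2-fold. GRMZM2G160541 (143404314 to 143408521), which RefSeq marks as a transcribed pseudogene, had 86.1 FPKM in hda108 and 16.9 FPKM in wild type. These 3 lie within the first 5 Mb of the interval. Among the 8 largest upward differences were also GRMZM2G552956 and GRMZM2G063220, described above, GRMZM2G130389 (203512422 to 203514557) with 11.5 FPKM in hda108 and 2.68 FPKM in wild type, and the pseudogene GRMZM2G019177 (169036644 to 169041098) with 10.9 FPKM in hda108 and 2.85 FPKM in wild type. GRMZM2G084195 (156508359 to 156509901) had 113 FPKM in hda108 and 37.0 FPKM in wild type. It matches more than 1 RefSeq entry and was left without a name.

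Downward, GRMZM5G844309 (150919519 to 150920068) had 7.33 FPKM in hda108 and 40.6 FPKM in wild type, a 5.25-fold difference. GRMZM2G137696 (161464614 to 161472929), with a locus of 8316 bp, had 12.8 FPKM in hda108 and 65.5 FPKM in wild type, a 4.97-fold difference. GRMZM2G125823 (173395871 to 173400537) had 7.25 FPKM in hda108 and 29.1 FPKM in wild type. All of these were well expressed in wild type. The next 4 had lower levels in wild type: GRMZM2G100754 with 2.73 FPKM in hda108 and 9.22 FPKM in wild type, GRMZM2G157458 with 2.62 FPKM in hda108 and 8.84 FPKM in wild type, GRMZM2G111774 with 2.02 FPKM in hda108 and 7.33 FPKM in wild type, and the long noncoding RNA gene GRMZM5G855924 with 0.808 FPKM in hda108 and 3.38 FPKM in wild type.

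**Figure D3:**
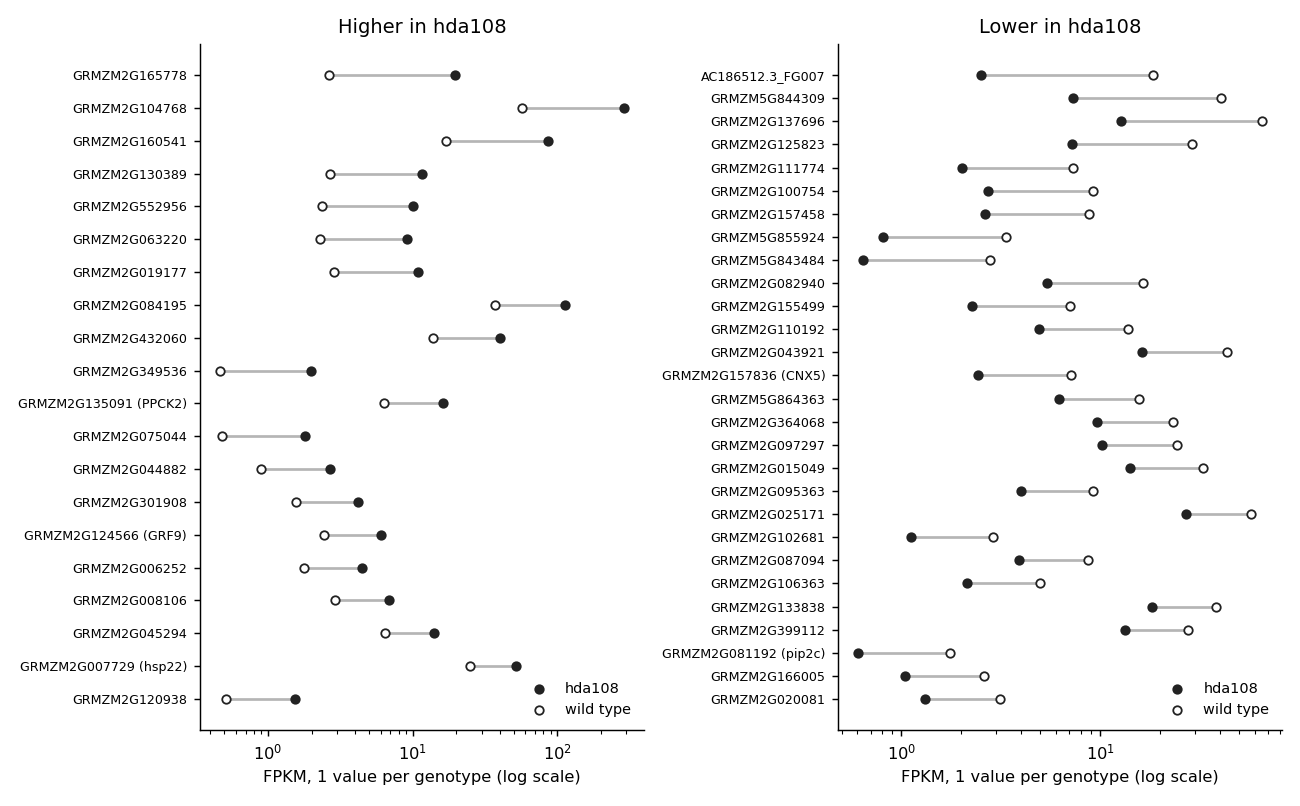
The authors' FPKM value in hda108 (filled circles) and in wild type (open circles), on a logarithmic x axis, for each of the 48 genes of the interval past 2-fold (y axis), ordered from the largest difference at the top; the 20 genes higher in hda108 are on the left and the 28 lower on the right. GRMZM2G104768 reaches 288 FPKM in hda108.

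The genes past 2-fold were like the rest of the interval in level and had shorter loci, the latter also on other chromosomes. Their median level was 6.73 FPKM, against 6.90 FPKM for the other 753 genes of the interval, whereas on other chromosomes the genes past 2-fold had a median of 4.19 FPKM and the rest 7.97 FPKM. Their median locus span was 1629 bp, against 3802 bp for the other genes of the interval. On other chromosomes the median span was 1518 bp past 2-fold and 3814 bp for the rest. Of the 32 that matched a single RefSeq entry, 4 are marked as transcribed pseudogenes or long noncoding RNAs (12.5%), against 3 of the 550 matched genes within 2-fold (0.545%). On other chromosomes the marks were on 4 of 216 matched genes past 2-fold (1.85%) and on 160 of 12890 of the rest (1.24%). The counts in the interval are small. The share of genes past 2-fold that matched a single entry was 66.7% in the interval, against 73.04% of the others. On other chromosomes it was 55.8% past 2-fold and 69.4% for the rest. Only 1 of the 48, GRMZM2G166005, shares its locus entry with another gene, which makes its value uncertain.

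Split by level and taken in percentage points, the interval stood furthest above the other sets among abundant transcripts. At a mean of 20 FPKM or more, 12 of 139 genes passed 2-fold (8.63%), against 6 of 187 on chromosome 4 up to 140 Mb (3.21%), 1 of 102 beyond 210 Mb (0.980%) and 47 of 4063 on other chromosomes (1.16%). Between 5 and 20 FPKM it was 18 of 353 (5.10%), against 4.92% up to 140 Mb, 0.526% beyond 210 Mb and 1.48% on other chromosomes. Between 1 and 5 FPKM it was 18 of 309 (5.83%), against 7.28% up to 140 Mb, 2.65% beyond 210 Mb and 3.28% on other chromosomes. On other chromosomes, and on chromosome 4 up to 140 Mb, the share was lower at each higher level, while in the interval the top level had the highest share. The 12 abundant genes were 5 higher in hda108, among them hsp22 and GRMZM2G432060 (40.2 FPKM in hda108 and 13.9 FPKM in wild type), and 7 lower, among them GRMZM2G025171 (26.9 FPKM in hda108 and 57.8 FPKM in wild type) and GRMZM2G043921 (16.2 FPKM in hda108 and 43.5 FPKM in wild type).

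Locus span moved the share everywhere. In loci under 1 kb, 9 of 37 genes of the interval passed 2-fold (24.3%), 8 of them lower in hda108, against 11.3% up to 140 Mb, 9.38% beyond 210 Mb and 8.76% on other chromosomes. In loci of 1 to 5 kb it was 34 of 501 (6.79%), against 6.16% up to 140 Mb, 3 of 250 beyond 210 Mb and 218 of 10915 on other chromosomes. In loci of 5 kb or more it was 5 of 263 (1.90%), against 2.76% up to 140 Mb, 0 of 161 beyond 210 Mb and 0.580% on other chromosomes. In these counts the interval was above other chromosomes in each class of level and of span. It was below chromosome 4 up to 140 Mb at 1 to 5 FPKM and in loci of 5 kb or more. Because the stretch was chosen by these same values, the classes are a description and nothing is read from them.

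**Figure D4:**
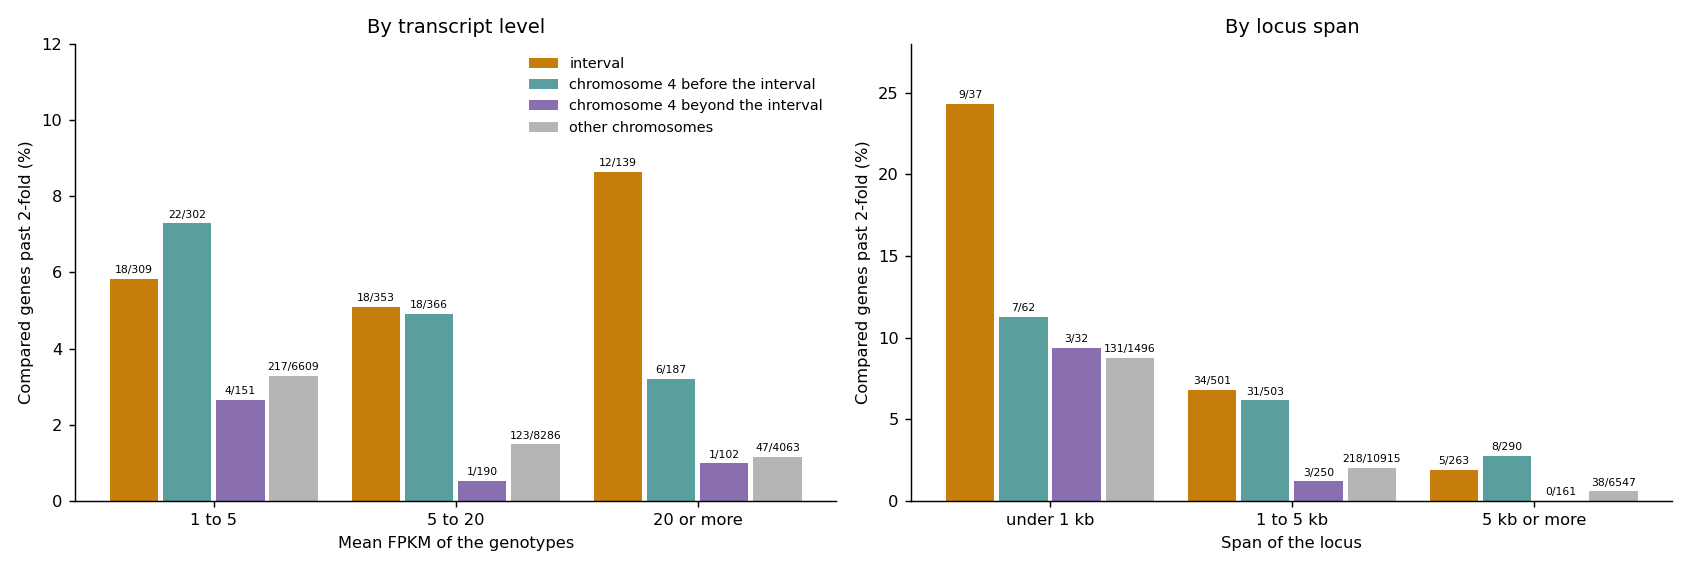
Percentage of compared genes past 2-fold (y axis) by mean FPKM of the genotypes (left, x axis) and by span of the locus (right, x axis), for the interval in orange, chromosome 4 before it in teal, chromosome 4 beyond it in purple and other chromosomes in grey. The numbers over the bars are genes past 2-fold over genes compared; the interval has the tallest bar in 4 of the 6 classes, with 8.63% at 20 FPKM or more, and chromosome 4 before it in the other two.

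Named genes were few in the interval, and their share past 2-fold was close to that of the genes without a name. Of the 801 genes 84 had an informative name in the RefSeq table, and 5 of these passed 2-fold (5.95%), while 43 of the 717 without a name did (6.00%). All compared genes with a name had a share of 2.62%. The 5 were PPCK2, GRF9 and hsp22, higher in hda108, and CNX5 and pip2c, lower.

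PPCK2 (GRMZM2G135091, 143105616 to 143107036) is named for phosphoenolpyruvate carboxylase kinase, which phosphorylates the carboxylase that fixes carbon in C4 leaves. It had 16.3 FPKM in hda108 and 6.37 FPKM in wild type, a 2.44-fold difference. The small subunit gene of rubisco, rbcs1 (GRMZM2G098520), stood the other way, with 79.5 FPKM in hda108 and 133 FPKM in wild type (-0.74). That gene is also 1 of the 7 leaf markers, each of which was lower in hda108, with sums of 2219 FPKM in hda108 and 3829 FPKM in wild type, and the part of that shift in the rbcs1 value was not tested. The remaining member of the carbon metabolism list, TPS9 (GRMZM2G312521), had 0.964 FPKM in hda108 and 1.88 FPKM in wild type (-0.70). Its symbol is used for more than 1 enzyme family. Over all 72 compared genes of the carbon metabolism list, 24 were above 0, with a median of -0.19. Among those 72, 5 were at least 2-fold higher and 5 at least 2-fold lower.

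Transcription factor genes of the interval lay mostly above 0. Of 12 members, 10 were above 0, 1 of them past 2-fold, with a median difference of 0.29. Over all 255 compared genes of that list, 160 were above 0, 11 were at least 2-fold higher and 2 at least 2-fold lower, and the median was 0.09. The member past 2-fold was GRF9 (GRMZM2G124566, 155831892 to 155833246), a name used for growth-regulating factors of leaf cell number, with 6.00 FPKM in hda108 and 2.44 FPKM in wild type (1.15). Another gene of that name family in the interval, GRF3 (GRMZM2G105335), had 3.55 FPKM in hda108 and 3.13 FPKM in wild type (0.16). MIR396e (173329483 to 173329649) is the precursor of a microRNA of the miR396 family, which in Arabidopsis and rice targets growth-regulating factor transcripts. It had 32.3 FPKM in hda108 and 16.3 FPKM in wild type (0.97), just under 2-fold, in a locus of only 167 bp.

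The other transcription factor genes ran from -0.23 to 0.47. bHLH36 had 14.5 FPKM in hda108 and 10.3 FPKM in wild type (0.47). Both of the best-known maize regulators of inflorescence form among them lay within 1.5-fold. For tunicate1 (GRMZM2G370777), the MADS-box gene whose misexpression in the ear gives pod corn, the values were 54.7 FPKM in hda108 and 59.2 FPKM in wild type. For ub3 (GRMZM2G460544), an SBP-box gene of tassel branching and kernel rows, they were 4.59 FPKM in hda108 and 3.82 FPKM in wild type. Outside that list, SCR (GRMZM2G131516), the scarecrow gene of ground tissue patterning, had 3.09 FPKM in hda108 and 3.76 FPKM in wild type.

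In the chaperone and stress list all 3 members were above 0, with a median of 0.46, against 0.13 over the 48 compared genes of that list. Over those 48 genes, 34 were above 0, 2 were at least 2-fold higher and 1 at least 2-fold lower. The small heat shock protein gene hsp22 (GRMZM2G007729, 179852642 to 179853912) had 51.9 FPKM in hda108 and 25.03 FPKM in wild type (1.04). With the median of all compared genes set to 0 its difference was 0.98, under the threshold. The dehydrin gene dhn2 had 49.0 FPKM in hda108 and 35.6 FPKM in wild type (0.46), and the chaperone gene HSP90-2, among the most abundant of the interval, had 263 FPKM in hda108 and 236 FPKM in wild type (0.15).

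Transport genes were split, 3 above 0 and 3 below, with a median of -0.04, against -0.01 over the 25 compared genes of that list. Over those 25 genes, 12 were above 0, 1 was at least 2-fold higher and 2 at least 2-fold lower. The aquaporin genes, which encode water channels, went both ways. The plasma membrane aquaporin gene pip2c (GRMZM2G081192, 143891074 to 143894123) had 0.607 FPKM in hda108 and 1.75 FPKM in wild type (-1.03), and with a pseudocount of 1 it had -0.78, under the threshold. PIP1-3, far more abundant, had 98.7 FPKM in hda108 and 124 FPKM in wild type (-0.33). The tonoplast aquaporin gene tip2a had 15.3 FPKM in hda108 and 9.18 FPKM in wild type (0.71), and pip1e 18.5 FPKM in hda108 and 15.6 FPKM in wild type (0.24).

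**Figure D5:**
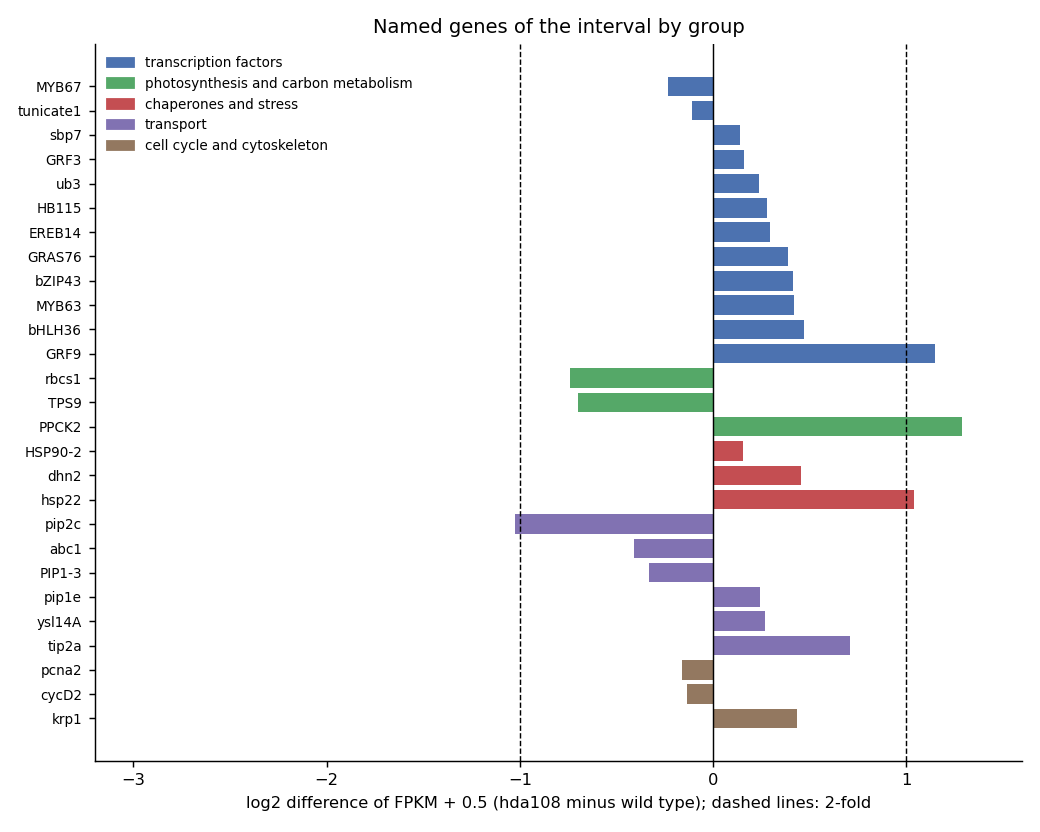
The x axis gives log2(FPKM + 0.5) in hda108 minus that in wild type for the named genes of the 5 gene lists with at least 3 members in the interval (y axis, coloured by list); dashed lines mark 2-fold in each direction. GRF9, PPCK2, hsp22 and pip2c pass 2-fold, and 10 of 12 transcription factor genes lie above 0.

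CNX5 (GRMZM2G157836, 161427902 to 161439131), which carries the synonym MOCS3-2 and is named for a step in making the molybdenum cofactor of nitrate reductase, had 2.43 FPKM in hda108 and 7.13 FPKM in wild type (-1.38). It lies 25.5 kb before GRMZM2G137696, described above, and the compared genes on either side of that pair had 0.16 and 0.12. The nitrite reductase gene NIR, next in the route from nitrate to ammonium, had 15.7 FPKM in hda108 and 19.7 FPKM in wild type (-0.32). With gln5 at -0.91, these 3 genes of nitrogen assimilation were below 0, but they were put side by side after their values had been seen and form no fixed list.

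All 3 members of the cell cycle and cytoskeleton list lay within 1.5-fold. KIN1 (GRMZM2G129569, also named krp1) had 22.6 FPKM in hda108 and 16.6 FPKM in wild type (0.43). The D-type cyclin gene cycD2 had -0.14 and pcna2, the sliding clamp of DNA replication, had -0.16. Over the 25 compared genes of that list, 16 were above 0 and 0 passed 2-fold in either direction. The 5 remaining lists with members in the interval had 1 or 2 each, none past 2-fold. Over all compared genes, each of these 5 lists had 0 genes at least 2-fold higher and 0 or 1 at least 2-fold lower. The chromatin list had HMG11 at 0.14 and the histone gene his2b5 at -0.30. The others were the cellulase gene Cel26 (0.50), the ethylene synthesis gene ACO20 (0.58), AUX27 (-0.17), the ribosomal protein gene rpl29 (-0.23) and c2, the chalcone synthase gene that opens the flavonoid route, with 144 FPKM in hda108 and 131 FPKM in wild type (0.14). The signalling list had no member there. The iron storage gene fer1, outside the lists, had 66.7 FPKM in hda108 and 79.6 FPKM in wild type (-0.25).

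The most abundant genes of the interval differed little. AC190609.3_FG002 (194518162 to 194520236) had 416 FPKM in hda108 and 412 FPKM in wild type. GRMZM2G411764 had 252 FPKM in hda108 and 243 FPKM in wild type, ANT2 had 237 FPKM in hda108 and 201 FPKM in wild type, and the gene named mif had 225 FPKM in hda108 and 209 FPKM in wild type. All 6 of the most abundant genes, with HSP90-2 and rpl29, lay between -0.23 and 0.24. The 801 genes together summed to 12540 FPKM in hda108 and 12276 FPKM in wild type, a ratio of 1.02.

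Genes close to the 2-fold threshold were called by a small margin. Just inside it lay GRMZM2G020081 (2.002-fold lower), GRMZM2G166005 (-1.01) and pip2c downward, and GRMZM2G120938 (1.01), hsp22 (1.04) and GRMZM2G045294 (1.05) upward. Just outside lay GRMZM2G057262 (1.999-fold lower), GRMZM2G063276 (-0.99) and GRMZM2G142342 (-0.95) downward, and GRMZM2G080959 (0.97), MIR396e (0.97) and GRMZM2G384780 (0.95) upward. At the ends of the interval itself, the first gene inside was GRMZM2G044882 (start 140010605, 1.19) and the last compared gene before it GRMZM2G430501 (start 139932138, -0.26). The last gene inside was GRMZM2G106363 (start 209980832, -1.06) and the first beyond it GRMZM2G141584 (start 210150977, -0.06). Of the filter on level, GRMZM2G076683 was just inside at a mean of 1.00003 FPKM and GRMZM2G026922 just outside at 0.996 FPKM.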

How the data were processed

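The members and gene lists were chosen with earlier results of these data known. The deposited values are FPKM, 1 per gene and genotype; the column named as homozygous was read as hda108. Per the submitters' processing notes, CASAVA 1.8, Trimmomatic 0.33, TopHat2 2.0.13, SAMtools, Cufflinks, Cuffdiff 2.2.1 and the build B73 RefGen_v3 were named, with no role or settings in the sources used here, so scaling between libraries is unknown. Such values depend on the annotated transcript length and on how reads of near-identical copies or differing alleles align to the reference line, and they are least certain for short loci.

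Of 1522 rows with a start in the interval, 801 were compared; 334 were at 0 in both genotypes, 65 in wild type alone, 29 in hda108 alone, and 293 had a mean below 1 FPKM. Genes sharing a locus entry (59 of the 801) have uncertain values. Names came from a RefSeq table of Zm-B73-REFERENCE-NAM-5.0, used for names alone: 582 of the 801 genes matched 1 entry, 19 matched several, and 84 had an informative name. Gene lists (11) were filled by symbol prefixes, which do not prove function. Sequences were not used here.

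With pooled values no test was possible; the planned fallback, counts past 2-fold on log2(FPKM + 0.5), was used. Genes named were those past 2-fold with a name, the 8 largest differences in each direction, the 6 most abundant, the largest of each list with at least 3 members, the 3 nearest to 2-fold on each side, and the highest rows at 0 in 1 genotype; every other gene was picked with its value in view. Alternatives covered pseudocount, 3 scalings, level filter, shared or short loci, fold threshold, bounds and bin width. The counting code was checked on a copy of the wild-type values with large folds set in chosen genes, which does not test calls near 2-fold. Software was matplotlib 3.10.9, scipy 1.17.1, pandas 2.3.3, numpy 2.4.6 and Python 3.11.15.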

Additional observations from a re-analysis of the deposited data

How the results depend on the processing

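At the 2-fold threshold, over the reported setting and 15 alternatives of pseudocount, scaling, filter, locus and bounds, the share past 2-fold in the interval ran from 4.62% to 7.37%. Over the 11 of these that apply elsewhere it ran from 0.685% to 2.26% beyond 210 Mb and from 1.38% to 2.87% on other chromosomes. The part higher in hda108 ran from 35.4% to 47.5% in the interval and from 59.1% to 69.9% on other chromosomes. Requiring a mean of 5 FPKM left 30 genes past 2-fold in the interval (6.10%), 2 beyond 210 Mb and 170 on other chromosomes. With a pseudocount of 0.1 there were 10 beyond 210 Mb. At 1.5-fold the counts were 139 in the interval, 25 beyond 210 Mb and 1598 on other chromosomes, and at 3-fold 14, 1 and 74 in the same order. The median difference of the interval was -0.022 with the median of all genes set to 0 and -0.026 with quantile normalization. Of the 38 genes named by rule, 25 passed 2-fold as reported, and 20 to 29 did under other pseudocounts and scalings; no called gene changed sign. Rows of the interval at 0 in 1 genotype and at least 1 FPKM in the other numbered 1, and 3 when values below 0.1 FPKM counted as 0. No paired analysis was possible because each genotype has a single pooled value, and leaving out single libraries was impossible for the same reason. Depth is unknown.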

Other observations

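Rows left out because a genotype was listed at 0 held little signal in the interval. The 65 rows at 0 in wild type alone reached at most 0.316 FPKM in hda108, in AC185623.4_FG010. The next were GRMZM5G873094, which shares its locus entry, at 0.259 FPKM, AC195796.3_FG001 at 0.209 FPKM and GRMZM2G172159 at 0.192 FPKM. Among the 29 rows at 0 in hda108 alone, AC217241.3_FG004 (187051150 to 187051354) had 1.12 FPKM in wild type, the highest, in a locus of 205 bp. It was followed by GRMZM5G890604 at 0.343 FPKM, GRMZM5G802941 at 0.300 FPKM and GRMZM2G371486 at 0.234 FPKM in wild type. Since a listed 0 may be an estimate that failed, these rows do not show a missing transcript.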
